A study of Mus musculus with 2 samples.

Results

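Plasma cells are the antibody-secreting end stage of the B cell lineage, and the cells described here are those plasma cells of mouse gonadal white adipose tissue (gWAT) in which few genes of cell division were detected. They were chosen by their own measured values, namely a unique molecular identifier (UMI, a tag that counts 1 captured RNA molecule) of at least 10 of 14 plasma cell genes (Sdc1, Tnfrsf17, Prdm1, Jchain, Xbp1, Mzb1, Derl3, Irf4, Txndc5, Fkbp11, Eaf2, Trp53inp1, Creld2 and Igkc) and of fewer than 4 of 10 cycling genes (Mki67, Top2a, Birc5, Cenpf, Cdk1, Ccnb2, Nusap1, Tpx2, Ube2c and Prc1). The rule found 1019 of 18753 cells, of which 189 came from 10216 cells of the low-fat diet (LFD) library and 830 from 8537 cells of the high-fat diet (HFD) library. Because these genes chose the cells, their levels against other cells are given as a description only.

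Both libraries came from male Cyp1a1Cre x R26LSL-eYFP mice fed a purified diet with 10% (LFD) or 60% (HFD) fat for 12 weeks and injected with FICZ, a ligand of the aryl hydrocarbon receptor (AHR), at 10 mg/kg 5 days before tissue collection. The stromovascular fraction (SVF) of gWAT was sorted for live eYFP+ cells, so every cell, in either library, should carry the mark of a Cre driven by the promoter of Cyp1a1, an AHR target. Both diets shared the genotype and the FICZ injection, and a Cre mark records past and not present use of Cyp1a1. Each diet was 1 library of 2 pooled mice whose cells cannot be told apart, so there was no replicate of either diet and no test was possible. Intervals in square brackets are 95% and cover counting error only, and a ratio between libraries compares those libraries and not the diets.

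A plasma cell forms when Blimp-1 (Prdm1), IRF4 and XBP1 shut down the B cell program and expand the endoplasmic reticulum (ER), where immunoglobulin chains are folded, glycosylated and joined before secretion. Cells that have just left a B cell state still divide and are called plasmablasts, and cells that have stopped dividing can persist where receptors such as BCMA (Tnfrsf17), CXCR4 and CD28 receive signals from their niche. In mouse fat and the body cavities, much of the IgM comes from B-1 cells, a lineage with a restricted set of antibody variable regions.

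Most plasma cell genes checked here belong to the rule, so their detection is a description and no check of the name. Igkc and Jchain, the chain that joins IgM and IgA subunits, had a UMI in all 1019 cells. Xbp1 had one in 188 of 189 LFD cells and 829 of 830 HFD cells. Sdc1, which encodes the plasma cell surface proteoglycan CD138, had one in 132 (69.8%) LFD and 647 (78.0%) HFD cells, and Prdm1 in 40.2% and 43.4%. Ighm, which the rule did not use, had a UMI in 187 and 829 cells. The least clear cases were 4 LFD and 6 HFD cells in which immunoglobulin genes gave under 5% of UMIs. All 10 of these held an Ighm UMI, but such a UMI alone does not tell what a cell is. Immunoglobulin UMIs were also 0.0311% (LFD) and 0.103% (HFD) of the total in endothelial cells, which do not make antibody. A UMI of Ptprc, which encodes CD45, was in all 4 LFD cells but in 1 of the 6 HFD cells. Whether these 10 are plasma cells was not tested.

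Near the edge of the rule, 27 LFD and 55 HFD cells held exactly 10 plasma cell genes, while 20 and 46 cells with few cycling genes held 9 and stayed outside. Among members the number of plasma cell genes peaked at 12, with 71 LFD and 261 HFD cells, and 11 and 122 cells held all 14. On the cycling side, 26 LFD and 94 HFD members held 3 cycling genes, and 24 and 72 plasma cells with 4 of them fell among the cycling plasmablasts, which numbered 265 and 691.

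**Figure D1:**
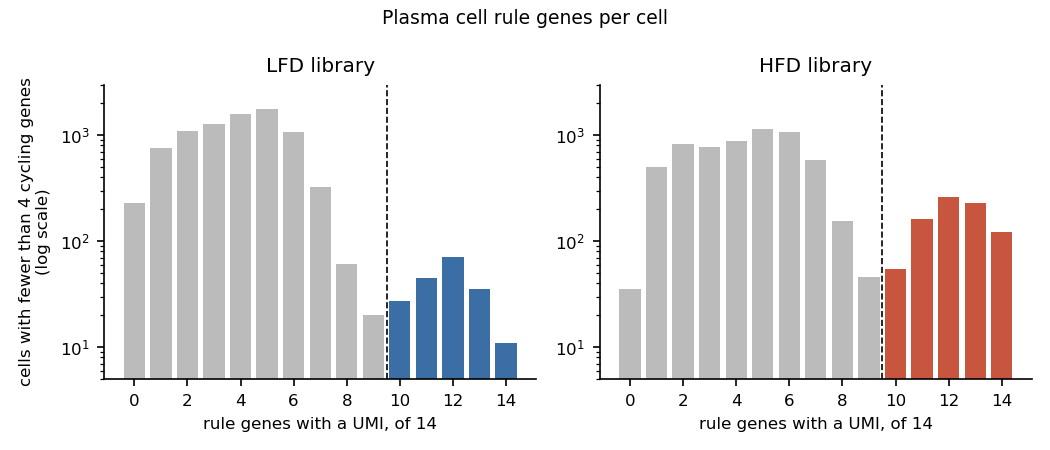
Number of cells (log y axis) against the number of the 14 plasma cell genes with a UMI, in cells with fewer than 4 cycling genes, for the LFD and the HFD library. Coloured bars at 10 genes and above are the selected cells, 189 in LFD and 830 in HFD, and the count dips at 9 genes (20 and 46 cells) between the bulk of other cells and the plasma cells.

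The libraries held 114311020 (LFD) and 119498750 (HFD) UMIs, with a median of 10636.5 and 13231 per cell. Non-cycling plasma cells had a median of 11115 (LFD) and 12231.5 (HFD) UMIs, 1979 and 2041 genes, and 3.34% and 3.21% mitochondrial UMIs. Scrublet, a doublet caller, marked 27 (14.3%) LFD and 75 (9.04%) HFD members against 9.03% and 7.71% of all cells, and marked cells were kept. The libraries shared 22 cell barcodes, of which 1 was that of a member.

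Non-cycling plasma cells made up a larger share of the HFD library. They were 1.85% [1.60–2.13] of LFD cells and 9.72% [9.10–10.4] of HFD cells, or 5.26 [4.48–6.19] times as much. These shares depended on the limit on mitochondrial UMIs, since under 5% they were 6.43% and 22.7% (3.53 times). The ratio for cycling plasmablasts was 3.12 [2.70–3.61], from 2.59% to 8.09% of cells. Among all plasma cells, the non-cycling share was 41.6% [37.1–46.3] in LFD and 54.6% [52.0–57.1] in HFD. With cycling plasmablasts left out of the denominator the shares were 1.90% and 10.6%. Resting B cells made up 9.98% of the LFD library and 8.90% of the HFD library (ratio 0.892 [0.811–0.980]), and 10.4% and 10.8% of cells other than plasma cells (1.04 [0.943–1.14]). A sort sets which cells enter each library, and shares within a sorted library give no number of cells in the tissue. With 2 pooled mice per library, how far the shares vary between mice is unknown.

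Antibody genes took up a large part of the RNA of these cells, and nearly all of the cells made IgM. Immunoglobulin genes gave a median of 31.7% of UMIs per cell in LFD (range 0.0328 to 59.8%) and 38.0% in HFD (0.0171 to 79.3%). Summed over cells the shares were 29.0% and 35.5%, against 19.0% and 25.7% in cycling plasmablasts and 1.25% and 1.24% in resting B cells (cells with a UMI of at least 6 of 12 B cell genes and fewer than 7 of the plasma cell genes). In endothelial cells (3 or more of 7 endothelial markers and no Ptprc UMI), which do not make antibody, immunoglobulin UMIs were 0.0311% (LFD) and 0.103% (HFD) of the total, and their source was not tested.

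By heavy chain, a cell was given a class when 80% or more of its constant region UMIs were of 1 gene. IgM (Ighm, chr12:113418558-113422730, minus strand, mm10) was the class of 185 of 189 LFD cells (97.9% [94.7–99.4]) and of 825 of 830 HFD cells (99.4% [98.6–99.8]). IgA (Igha) was the class of 3 LFD (1.59%) and 5 HFD (0.602%) cells, and IgG2b (Ighg2b) of 1 LFD cell. No UMI of Ighg1, Ighg2c or Ighe was found in any member. Heavy chain UMIs per cell ran from 1 through a median of 902 to 3245 in LFD and from 1 through 1169 to 4399 in HFD. Igha UMIs sat in few cells, since 1 LFD cell held 1540 of the 2369 in that library (65.0%). Switched plasma cells were therefore a handful in either library, too few to describe by class.

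Light chains set the libraries apart more than heavy chains did. By the same 80% limit, 180 (95.2%) LFD and 686 (82.7%) HFD cells used kappa, 6 (3.17%) and 22 (2.65%) used lambda, and 3 (1.59%) and 122 (14.7%) used neither alone. Most of the latter held UMIs of Igkc (chr6:70726435-70726966, plus strand) together with the lambda constant gene Iglc1 (chr16:19061618-19062071, minus strand). Counting cells with at least 20% Igkc among light chain UMIs and an Iglc1 to Igkc ratio of 0.05 or more, a limit set after the values were seen, gave 6 LFD (3.17% [1.17–6.78]) and 244 HFD (29.4% [26.3–32.6]) cells with both chains. At a ratio of 0.025 the shares were 7.41% and 30.1%, and at 0.1 they were 3.17% and 26.0%. In the HFD library the ratio separated 2 groups, with 559 cells below 0.025, 6 cells from 0.025 to 0.05, 28 from 0.05 to 0.1 and 218 from 0.1 to 1.

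The 244 HFD cells with both chains held a median of 3153.5 Igkc and 707 Iglc1 UMIs, while the 557 kappa cells below the limit of 0.05 held 3070 and 10. The source of Iglc1 UMIs in these 557 cells was not tested, and they came to 1078 CPM against 61.4 CPM of Iglc1 in HFD endothelial cells. Iglc1 was thus present beside a level of Igkc like that of the other kappa cells. The other lambda genes did not share this, with medians of 10 UMIs of Iglc2 and Iglc3 summed in the former and 16 in the latter. The median depth was 12800 UMIs in cells with both chains and 11915 in the other HFD members, and 26 of the 244 were marked as doublets. Cycling plasmablasts showed the same split, with 10 LFD (3.77% [1.82–6.83]) and 244 HFD (35.3% [31.7–39.0]) cells with both chains.

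**Figure D2:**
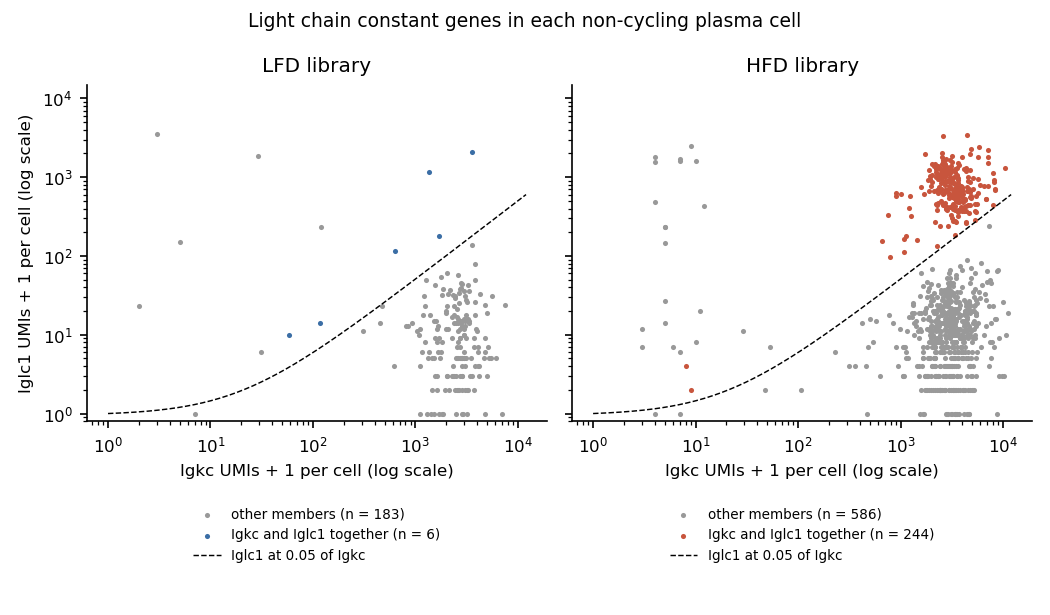
Iglc1 UMIs plus 1 against Igkc UMIs plus 1 in each non-cycling plasma cell of the LFD and the HFD library, both axes logarithmic, with a dashed line where Iglc1 is 0.05 of Igkc. Coloured points are cells with both chains, 6 in LFD and 244 in HFD. In HFD most of them form a group at a high Igkc level above the cells with a median of 10 Iglc1 UMIs, while cells with only 8 and 7 Igkc UMIs also passed the limit.

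A few variable (V) genes gave most V gene UMIs of each locus. Reads of a 3′ kit start near the poly(A) end and mostly miss the V segment, so V genes gave 251 heavy chain UMIs in LFD and 1674 in HFD members, and 56.1% and 69.6% of members had any. Ighv11-2 took 166 of the 251 (66.1% [59.9–72.0]) and 1448 of the 1674 (86.5% [84.8–88.1]), although 29 and 45 Ighv genes had a UMI. Among kappa V genes, Igkv14-126 took 416 of 836 UMIs in LFD (49.8% [46.3–53.2]) and 3413 of 4786 in HFD (71.3% [70.0–72.6]), out of 48 and 52 genes with a UMI. Igkv4-91 came next with 60 (7.18%) and 594 (12.4%) UMIs. The V gene with most UMIs was Iglv1 of the lambda locus, with 2568 of 2634 Iglv UMIs in LFD and 17851 of 18257 in HFD, in 169 (89.4%) and 790 (95.2%) members, although few members used lambda. After thinning it was in 80.9% and 90.1% of members against 0.786% and 0.943% of endothelial cells. Ighv11-2 with Igkv14-126, and Ighv12-3 with Igkv4-91, are pairs known from B-1 cells whose antibodies bind phosphatidylcholine.

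The V genes that the heavy and kappa chain results turn on are printed here as 300 bases of the annotated transcripts (GENCODE, mm10), on the coding strand. These are the last 300 bases of Ighv11-2 and Igkv14-126 and bases 51 to 350 of Igkv4-91, and capitals mark the 20-base window with the most A. Ighv11-2 lies at chr12:114048241-114048812 (minus strand), Igkv14-126 at chr6:67896172-67896642 (plus strand) and Igkv4-91 at chr6:68768555-68769103 (minus strand).
Ighv11-2: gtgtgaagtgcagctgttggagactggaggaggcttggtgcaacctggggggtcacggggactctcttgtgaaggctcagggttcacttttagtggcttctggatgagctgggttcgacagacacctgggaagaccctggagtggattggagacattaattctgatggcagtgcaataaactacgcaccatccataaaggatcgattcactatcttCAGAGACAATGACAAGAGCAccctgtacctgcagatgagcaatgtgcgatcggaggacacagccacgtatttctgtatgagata
Igkv14-126: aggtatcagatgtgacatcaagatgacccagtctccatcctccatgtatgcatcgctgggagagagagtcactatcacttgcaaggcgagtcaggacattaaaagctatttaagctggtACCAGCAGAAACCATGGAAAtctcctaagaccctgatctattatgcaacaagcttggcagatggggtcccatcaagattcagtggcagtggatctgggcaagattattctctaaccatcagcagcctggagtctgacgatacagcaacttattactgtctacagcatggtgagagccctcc
Igkv4-91: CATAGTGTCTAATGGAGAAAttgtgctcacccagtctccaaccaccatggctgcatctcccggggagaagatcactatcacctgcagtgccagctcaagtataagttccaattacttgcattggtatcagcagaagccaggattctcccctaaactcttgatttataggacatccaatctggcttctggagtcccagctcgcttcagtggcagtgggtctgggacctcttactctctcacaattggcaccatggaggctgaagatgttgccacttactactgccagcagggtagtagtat
The capitals hold 10 A in Ighv11-2, 10 in Igkv14-126 and 8 in Igkv4-91. A window as rich in A was found in 70.4% of Ighv transcripts for Ighv11-2, in 69.7% of Igkv transcripts for Igkv14-126 and in 98.5% for Igkv4-91. Whether such a stretch affects how often a V gene is counted was not tested.

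In cells, Ighv11-2 had a UMI in 58 (30.7%) LFD and 448 (54.0%) HFD members. After each cell was thinned to 5000 UMIs, leaving out 1 LFD and 12 HFD members below that depth, the shares were 18.1% [12.9–24.3] and 35.5% [32.2–38.8]. In endothelial cells thinned alike, with 381 and 492 cells left out and median depths before thinning of 6535 and 4493.5, none of the LFD cells had one, which allows a share of up to 0.589%, and 0.708% of the HFD cells did. Igkv14-126 was in 84 (44.4%) and 583 (70.2%) members, or 36.2% and 59.4% after thinning, against 0.196% and 0.472% of endothelial cells. The shares of both genes in members were above those in endothelial cells, and both were higher in HFD.

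The heavy and light V genes went together. Of the 58 LFD members with an Ighv11-2 UMI, 56 (96.6%) also had one of Igkv14-126, and of the 448 in HFD, 436 (97.3%) did. Without Ighv11-2 the shares were 21.4% and 38.5%. Ighv12-3 was in 7 LFD and 27 HFD members, of which 7 and 25 (92.6%) also had Igkv4-91, against 8.79% and 9.59% of members without Ighv12-3. Members with Ighv11-2 rarely had Igkv4-91, at 0 of 58 and 3 of 448. Lambda cells had neither Ighv11-2 nor Igkv14-126 in either library.

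Where at least 5 UMIs allowed a leading V gene to be named (50% or more of the cell's UMIs at that locus), Ighv11-2 led 8 of 10 LFD and 94 of 98 HFD cells and Igkv14-126 led 43 of 73 and 322 of 432. Igkv4-91 led 2 and 58 cells. Cells of 1 clone share their V genes, so these cells are not independent observations of V gene use, and neither the number of clones nor the mouse of a cell can be read from these files. Cycling plasmablasts had nearly the same shares in each library, with Ighv11-2 at 63.7% (LFD) and 85.2% (HFD) of Ighv UMIs and Igkv14-126 at 49.6% and 71.6% of Igkv UMIs.

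**Figure D3:**
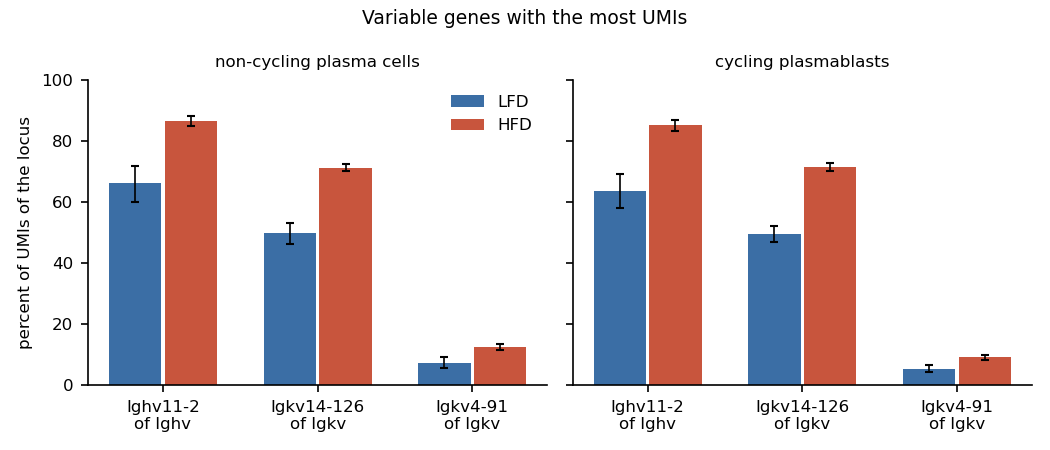
Percent of the V gene UMIs of a locus that came from Ighv11-2, Igkv14-126 and Igkv4-91, with 95% counting intervals, in non-cycling plasma cells and in cycling plasmablasts of the LFD and the HFD library. Ighv11-2 (66.1% and 86.5% in members) and Igkv14-126 (49.8% and 71.3%) are higher in HFD in both kinds of cell.

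The HFD cells with both light chains were the most uniform in their V genes. Among them Ighv11-2 gave 551 of 564 Ighv UMIs (97.7%) and Igkv14-126 gave 1341 of 1403 Igkv UMIs (95.6%), and these genes had a UMI in 177 and 229 of the 244 cells. In HFD kappa cells below that limit the shares were 82.0% (897 of 1094) and 61.2% (2064 of 3370), with 569 UMIs (16.9%) from Igkv4-91. The cycling HFD plasmablasts with both chains had 95.4% Ighv11-2 and 89.1% Igkv14-126. The 6 LFD members with both chains held too few V gene UMIs to compare, with 2 of Ighv, none from Ighv11-2, and 12 of Igkv, 2 of them from Igkv14-126. In the LFD plasmablasts with both chains Ighv11-2 gave 6 of 9 Ighv UMIs and Igkv14-126 gave 21 of 41 Igkv UMIs. Iglv1, the V gene that joins Iglc1, did not separate the groups, at 1359 CPM (summed counts scaled to a total of 1000000) in HFD cells with both chains and 1721 in those without.

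Other genes also differed between HFD cells with both chains and the other kappa cells, and these were picked after their values were seen. Gm30211 had 16 counts in the 244 cells and 680 in the 557 (ratio of CPM 0.0483 [0.0274–0.0790]). This lincRNA (chr6:70719074-70740554, plus strand) spans Igkc on the same strand. Igkc itself had a ratio of 0.926, and the part of Igkc transcripts in the Gm30211 counts was not tested. Cox6a2, a subunit of cytochrome c oxidase, had a ratio of 0.159, the amino acid transporter Slc7a3 0.223 and Atf5 0.337. Fabp5, a fatty acid binding protein, had 3.21, Eif4e3 3.78 and Klhl41 3.39. Also among the 10 highest were Areg at 3.01, Des at 2.38, Tm4sf1 at 2.37 and the macrophage gene Lyz2 at 2.35. The part of RNA of other cell types in these ratios was not tested. In cycling plasmablasts split alike, Klhl41 was at 2.59 [1.98–3.40] and Lyz2 at 6.66 [5.21–8.61]. There Fabp5 was at 1.01 [0.884–1.14], Eif4e3 at 1.06 [0.700–1.59], Des at 1.53, Tm4sf1 at 0.942 and Areg at 0.320. Cox6a2, Slc7a3 and Atf5 were nearer to 1 in plasmablasts at 0.577, 0.405 and 0.730. Plasma cell genes of the rule, by which the cells of both groups were chosen, hardly differed. Their ratios were 0.997 for Jchain, 1.01 for Sdc1, 1.08 for Xbp1 and 0.961 for Prdm1.

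The secretory program was high in both libraries. Against resting B cells, a contrast that the rule itself fixed in part, 325 of 7050 genes (4.61%) were 2-fold or more higher in members of both libraries and 2029 (28.8%) were 2-fold or more lower. The median ratio over all genes was 0.643 in LFD and 0.566 in HFD, and immunoglobulin UMIs, which take up room in the total, are a part of this. With immunoglobulin genes left out of the total, 582 genes were higher and 951 lower. Of the genes of the rule, Jchain was 199 (LFD) and 119 (HFD) times the level of B cells, Xbp1 19.7 and 26.1 times and Eaf2 74.7 and 76.2 times. Tnfrsf17 had 0 and 3 counts in B cells against 90.4 and 122 CPM in members.

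ER chaperones and folding enzymes are targets of XBP1, and 20 of the 24 tested genes of their list were 2-fold or more higher than in B cells in both libraries, with medians of 4.42 (LFD) and 3.46 (HFD). Sdf2l1, a partner of the chaperone BiP, was at 10.2 and 13.1 times, Fkbp2, a prolyl isomerase, at 6.93 and 12.8 times, Hsp90b1 (GRP94) at 7.52 and 8.43 times, and Hspa5 (BiP itself) at 5.78 and 4.11 times. For translocation into the ER 14 of 19 genes were higher (medians 2.87 and 3.35), among them the signal peptidase subunits Sec11c (6.79 and 7.89 times) and Spcs1 (5.88 and 6.57 times). For ER-associated degradation (ERAD) it was 10 of 14 (4.35 and 3.14), with Edem1, which draws misfolded glycoproteins into this route, at 16.2 and 21.1 times.

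The later steps stood less far above B cells. Of 15 genes of N-glycosylation 8 were higher and 1 (Tusc3) lower (medians 2.44 and 2.22), with the oligosaccharyltransferase subunit Ddost at 5.56 and 6.33 times. Of 20 genes of ER to Golgi transport 9 were higher (1.81 and 2.02), with the cargo receptor Lman1 at 6.95 and 9.34 times. Of 10 sensors and PERK arm genes of the unfolded protein response 3 were higher (1.53 and 0.981), including Ern1 (IRE1, which splices Xbp1 mRNA) at 4.27 and 5.52 times. None of 18 genes of oxidative phosphorylation passed 2-fold in either direction (1.05 and 0.985).

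Some promoters of the folding genes share a motif that the choice of cells did not use. The ER stress response element (ERSE), CCAAT followed by any 9 bases and CCACG, searched on both strands in the 250 bases before and 50 after each RefSeq start (GRCm38.p6), was in 39 of 32851 promoters (0.119%) and in 37 of 27025 genes. Of the folding list, 20 of 25 genes matched the table and 6 held it, namely Calr, Canx, Dnajc3, Hsp90b1 (with 2 matches), Hspa5 and Pdia6. Of ERAD genes 1 of 13 matched genes held it (Syvn1), and of the translocation (15 genes), N-glycosylation (12), ER to Golgi (17) and oxidative phosphorylation (13) lists none did. The list of plasma cell genes of the rule matched in 11 of 14 genes, of which 2 held the motif. Each match contains the shorter CCAAT box, itself in 37.4% of promoters. A match is a run of letters and not shown here to be bound. Promoters of 3 folding genes with the ERSE that were 4-fold or more above B cells are printed as the 250 bases before the start, 5′ to 3′, with the ERSE in capitals.
Hspa5 (chr2:34771840-34772089, plus strand): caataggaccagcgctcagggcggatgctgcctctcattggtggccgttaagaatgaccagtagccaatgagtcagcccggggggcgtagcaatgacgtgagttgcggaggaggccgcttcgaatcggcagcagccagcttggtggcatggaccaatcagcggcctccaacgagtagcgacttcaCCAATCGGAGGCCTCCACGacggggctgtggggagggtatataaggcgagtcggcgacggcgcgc
Hsp90b1 (chr10:86705445-86705694, minus strand): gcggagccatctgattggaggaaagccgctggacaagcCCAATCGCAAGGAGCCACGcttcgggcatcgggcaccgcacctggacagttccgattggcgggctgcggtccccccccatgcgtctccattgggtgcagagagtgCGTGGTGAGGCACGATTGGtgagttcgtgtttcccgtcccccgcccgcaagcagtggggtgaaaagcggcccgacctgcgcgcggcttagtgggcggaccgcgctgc
Pdia6 (chr12:17266339-17266588, plus strand): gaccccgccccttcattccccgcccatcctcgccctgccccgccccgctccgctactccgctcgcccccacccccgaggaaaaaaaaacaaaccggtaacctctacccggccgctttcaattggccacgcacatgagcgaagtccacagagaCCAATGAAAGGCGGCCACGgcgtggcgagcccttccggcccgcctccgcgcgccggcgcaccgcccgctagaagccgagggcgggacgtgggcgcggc
The first base of the motif lies 65 bases before the start in Hspa5, 212 and 107 in Hsp90b1 and 98 in Pdia6, which was at 5.20 (LFD) and 5.47 (HFD) times the level of B cells.

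The B cell program was low, as the choice of cells in part set. All 8 genes of MHC class II presentation and all 15 tested genes of B cell identity were 2-fold or more lower than in B cells of both libraries, with medians of 0.0464 (LFD) and 0.0334 (HFD) and of 0.0374 and 0.0350. Outside the rules, Spib, a B cell transcription factor, was at 0.00267 and 0.00566 times the level of B cells, Ltb (lymphotoxin beta) at 0.00254 and 0.00816, and H2-DMb2, which loads peptide on class II, at 0.00292 and 0.00793. The chemokine receptor Ccr7 had 0 counts in LFD members, so B cells were at least 88.4-fold higher, and in HFD members 0.00675 times the B cell level. The class II regulator Ciita had 0 counts in LFD members, where B cells were at least 48.1-fold higher, and was at 0.0120 in HFD. Ccr6, Zbtb32, H2-Oa, Lamb3 and S100a9, the last a neutrophil gene, completed the 10 lowest outside the rules and immunoglobulin genes.

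The 15 genes furthest above B cells were picked outside the rules and outside immunoglobulin genes. Among them Ly6c2, a surface antigen of plasma cells, was at 251 (LFD) and 313 (HFD) CPM, 129 and 89.9 times the B cell level. Cacna1h, a calcium channel, had 0 and 1 counts in B cells against 31.8 and 41.7 CPM in members (at least 49.3-fold higher in LFD). Cox6a2 had 0 and 1 counts against 46.5 and 27.9 CPM (at least 71.9-fold higher in LFD). Bhlha15 (MIST1), a transcription factor of secretory cells, was at 28.8 and 29.9 CPM, with 2 and 4 counts in B cells. Amino acid genes were among them, with Pycr1 of proline synthesis at 57.2 and 70.7 CPM (10 and 0 B cell counts, at least 88.1-fold higher in HFD), Asns, asparagine synthetase, at 135 and 85.3 CPM (30 and 2) and Chac1 at 13.8 and 14.9 CPM (0 and 2). Ovol3, Endou, Cldn7, Cpeb3, 4933404K13Rik and Gpr160 were also among the 15, with Cd28 and Il10, which are described below.

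**Figure D4:**
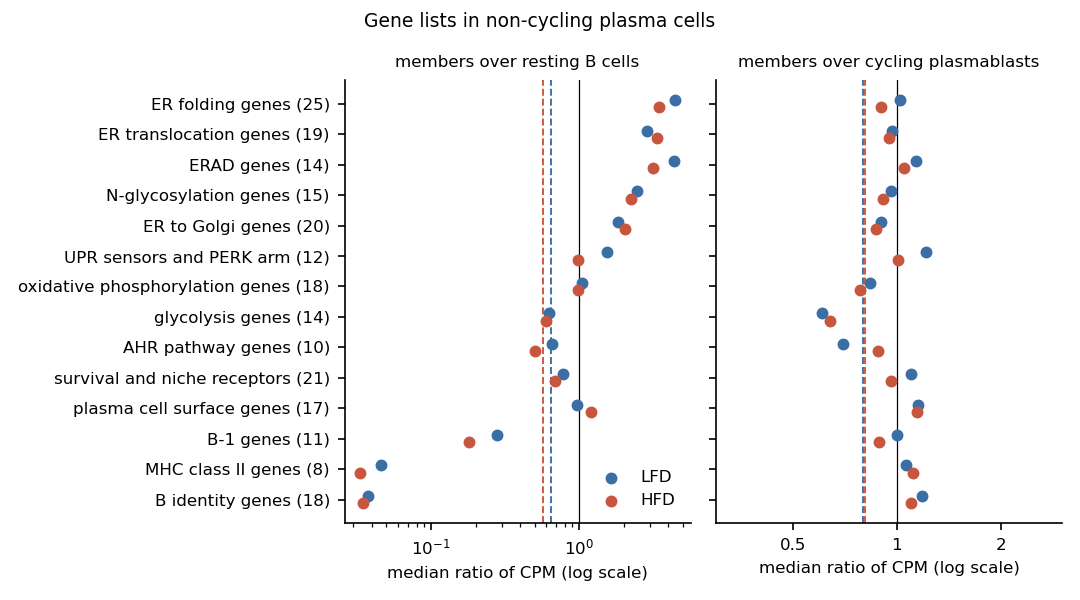
Median ratio of CPM for 14 gene lists (sizes in brackets) in non-cycling plasma cells over resting B cells and over cycling plasmablasts, on log axes, with a dot for each library and a dashed line at the median over all genes. Folding, translocation and ERAD genes lie furthest above B cells (medians of 2.87 to 4.42), MHC class II and B identity genes furthest below, and the secretory lists lie close to 1 against cycling plasmablasts.

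Against cycling plasmablasts, few genes were higher in members and more were lower, and this contrast too was set by the rule. Of 7703 genes 8 (0.104%) were 2-fold or more higher in members of both libraries and 472 (6.13%) lower, with medians over all genes of 0.797 (LFD) and 0.810 (HFD). All 16 cell cycle genes outside the rule were 2-fold or more lower (medians 0.188 and 0.129). Hmmr, a spindle protein, was at 0.0195 and 0.0233 times the plasmablast level, the mitotic kinase Aurka at 0.0245 and 0.0146, Neil3 at 0.0258 and 0.0251 and Pbk at 0.0280 and 0.0200, and Kif2c had 0 and 3 counts in members.

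The secretory lists were close to level with plasmablasts, at medians of 1.02 and 0.900 for folding, 0.969 and 0.951 for translocation, 1.14 and 1.05 for ERAD, 0.963 and 0.914 for N-glycosylation and 0.902 and 0.870 for ER to Golgi transport. Glycolysis was lower at 0.609 and 0.642, with Ldha at 0.538 and 0.590, beside the medians over all genes just given. Outside the rules and immunoglobulin genes, those furthest above plasmablasts were Cox6a2 (3.90 and 4.58 times), Ypel3 (2.75 and 2.96), Tmem150a (2.56 and 2.85), Fam214a (3.09 and 2.51) and Cd28 (3.13 and 2.48). Ctla2a, Cldn7, Calcoco1 and Slc7a3 followed at 1.99 to 2.60 times, and then Chrnb1 (4.15 and 1.95). Of the Ctla2a counts of LFD members, 68.4% sat in 1 cell. BCMA (Tnfrsf17) was at 1.87 and 1.91 times, Jchain at 1.77 and 1.77 and Trp53inp1 at 1.81 and 1.77.

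Between the diets, 601 of 8680 genes (6.92%) were 1.5-fold or more higher in HFD members and 1025 (11.8%) lower, with a median ratio of 0.921. Immunoglobulin genes again take part of this, since with these left out of the total the shares were 10.3% higher and 7.33% lower and the median 1.01. Counts over gene lists are read against these shares, and at 1 library a diet no gene can be called changed.

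The plasma cell genes of the rule were level or somewhat higher in HFD, with 2 of 13 past 1.5-fold (Jchain and Trp53inp1) and a median ratio of 1.11. Jchain was at a median of 10928 CPM per LFD cell and 18884 per HFD cell (quartiles 5077 and 19979 in LFD, 11592 and 26711 in HFD), and its summed ratio was 1.59 [1.57–1.61], the same as in cycling plasmablasts (1.59). Trp53inp1 had 1.77 [1.62–1.95] (1.82 in plasmablasts), Txndc5, a disulfide isomerase, 1.43 [1.38–1.49] and Tnfrsf17 1.35 [1.16–1.56]. The master regulators were closer to level, at 1.07 [0.867–1.34] for Prdm1, 1.11 [0.958–1.30] for Irf4 and 1.15 [1.11–1.19] for Xbp1, as was Sdc1 at 1.02 [0.896–1.17].

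Of 15 plasma cell regulators outside the rule, 2 were past 1.5-fold higher (Ikzf1 and Tent5c), 2 lower (Klf2 and Id3), and the median was 1.01. Without immunoglobulin genes in the total 5 were higher and 1 lower. Tent5c, a poly(A) polymerase that stabilises immunoglobulin mRNA, was at 234 and 353 CPM (1.51 [1.38–1.65]) and 13.2 and 13.4 times B cells. Ell2, an elongation factor that favours the secreted form of Ighm, had 1.38 [1.23–1.56], and Ikzf1 (Ikaros) 1.61 [1.20–2.20] from 51 and 402 counts. Klf2, a trafficking regulator, had 0.666 [0.578–0.770] and Id3 0.580 [0.458–0.740]. The coactivator Pou2af1 stood at 555 and 556 CPM (1.00 [0.943–1.06]).

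The ER lists had medians between 0.979 and 1.03 and few genes past 1.5-fold, with 2 higher (Ero1lb and Txndc11) and 1 lower (Hspa5) of 24 for folding, 0 and 1 (Sec11a) of 19 for translocation, none of 15 and of 20 for N-glycosylation and ER to Golgi transport, and 1 (Edem3) and 1 (Herpud1) of 14 for ERAD. Without immunoglobulin genes in the total no translocation gene was lower, 1 ER to Golgi gene was higher, and 2 ERAD genes were higher and 1 lower. Edem1 lay just under the limit at 1.47 [1.40–1.55]. Hspa5 was at 2296 CPM in LFD and 1356 in HFD (ratio 0.591 [0.572–0.609]). The medians per cell were closer, at 1241 and 1059 CPM, and 5 LFD cells held 27.9% of the Hspa5 counts of that library. Herpud1 was at 461 and 279 CPM (0.604 [0.564–0.648]), with medians per cell of 262 and 217. In cycling plasmablasts the ratios were 1.00 and 1.02.

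Of 10 genes of the unfolded protein response list, 4 were 1.5-fold or more lower in HFD and none higher, at a median of 0.905 that lay close to that of all genes. Without immunoglobulin genes in the total 3 were lower and 1 higher, since Asns moved to 0.698. The 4 genes were Asns (0.634 [0.557–0.722]), Sesn2 (0.592 [0.420–0.847]), Atf3 (0.538 [0.439–0.661]) and Nupr1 (0.281 [0.219–0.360]), genes of the amino acid and stress response downstream of PERK. Atf4 itself was level at 0.987 [0.904–1.08]. Of 17 amino acid and lipid supply genes 1 was higher and 5 lower (median 0.791), among them the amino acid transporter Slc7a5 at 0.627 [0.556–0.708], which in cycling plasmablasts stood at 1.06. Without immunoglobulin genes 3 of these 17 were lower and Slc7a5 was at 0.691. Stromal marker RNA, at 4903 CPM in LFD and 2461 in HFD members, and macrophage marker RNA, at 335 and 72.3 CPM, was also higher in LFD, and its part in these ratios was not tested.

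**Figure D5:**
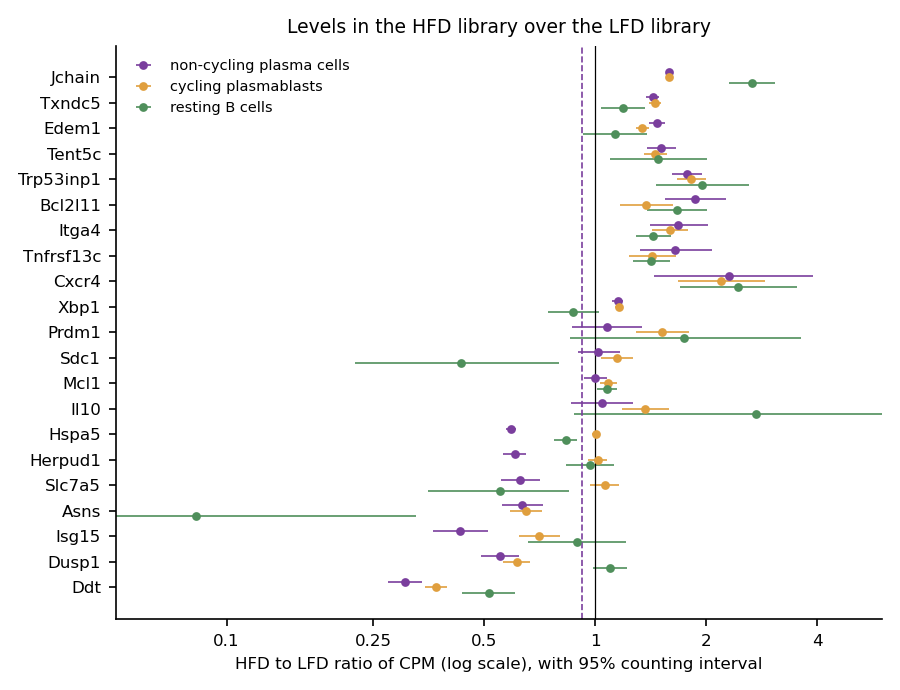
HFD to LFD ratio of summed CPM (log axis, 95% counting interval) for 21 genes in non-cycling plasma cells, cycling plasmablasts and resting B cells, with a dashed line at the median of all genes in members (0.921). Jchain (1.59), Trp53inp1 (1.77), Bcl2l11 (1.87) and Cxcr4 (2.31) lie to the right, Ddt (0.305) and Isg15 (0.431) to the left, and Hspa5, Herpud1 and Slc7a5 are lower in HFD members but near 1 in cycling plasmablasts.

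Among 18 tested survival and niche genes, 4 were 1.5-fold or more higher in HFD members (22.2%), 2 lower, and the median was 1.02 (5 and 2 without immunoglobulin genes in the total). Cxcr4, the receptor for CXCL12 that holds plasma cells in their niche, had 19 counts in LFD and 214 in HFD, at 8.17 and 18.8 CPM (2.31 [1.44–3.90]; 2.19 in plasmablasts). A Cxcr4 UMI was found in 19 (10.1%) and 173 (20.8%) members, or after thinning in 2 (1.06%) and 70 (8.56%), against 3.14% and 5.19% of endothelial cells, some of which use this receptor themselves. Itga4, the alpha chain of the integrin VLA-4, was at 58.1 and 97.7 CPM (1.68 [1.41–2.03]), and the BAFF receptor Tnfrsf13c at 39.2 and 64.6 (1.65 [1.32–2.07]). On the side of cell death, Bcl2l11 (BIM) was at 53.4 and 99.5 CPM (1.87 [1.55–2.26]) with a UMI in 59 (31.2%) and 416 (50.1%) members, and Bcl2 at 14.2 and 7.57 CPM (0.533 [0.353–0.823]). Mcl1, on which plasma cells depend to survive, was at 397 and 397 CPM (0.999 [0.930–1.07]).

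Against B cells 3 of 18 genes of this list were 2-fold or more higher (Cd28, Ccr9 and Bcl2l1), 7 were lower and 8 were neither. Cd28, better known as a T cell costimulator, had 91 and 367 counts in members and 1 and 6 in B cells, at 39.2 and 32.3 CPM (HFD to LFD 0.825 [0.655–1.05]), and after thinning 17.0% and 15.3% of members had a UMI against 0.196% and 0.236% of endothelial cells. Ccr9, a gut-homing receptor, was in 10.6% and 10.1% of thinned members and in no thinned endothelial cell. Il5ra, the receptor for the B-1 cell growth factor IL-5, was in 20.2% and 21.9%, again against none. TACI (Tnfrsf13b) was at 0.755 and 0.630 times the level of B cells (HFD to LFD 1.13 [0.974–1.31]) and the egress receptor S1pr1 at 0.0230 and 0.0317.

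Of 16 surface genes none was past 1.5-fold between diets with all UMIs in the total (median 0.891), but 3 were higher in HFD without immunoglobulin genes in the total (median 0.981). Against B cells 5 were higher and 6 lower. Slamf7, in 39.4% and 48.4% of thinned members, was at 12.9 and 18.2 times B cells, Ly6k at 7.06 and 7.48 and the adhesion molecule Epcam at 6.38 and 6.93. Cd37, a B cell tetraspanin, was at 0.0684 and 0.0478. Ptprc, which encodes CD45, was at 0.410 and 0.452 times B cells and its ratio between diets was 1.44 [1.30–1.61], or 1.59 without immunoglobulin genes.

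Markers of B-1 cells gave a mixed picture beside the B-1 V genes. Of 9 tested genes, 6 were 2-fold or more lower than in B cells and 1 (Ctla4) was higher (medians 0.280 and 0.181). Ctla4, an inhibitory receptor that B-1 cells also carry, was at 80.9 and 81.3 CPM, 4.37 and 5.24 times B cells, and in 28.2% and 27.5% of thinned members. Spn (CD43) was at 32.7 and 50.5 CPM (HFD to LFD 1.54 [1.21–1.99]), near the level of B cells (1.07 and 0.885 times). Cd5 was in 0% and 0.367% of thinned members, and Bhlhe41, a B-1 transcription factor, was at 0.280 and 0.298 times B cells. The B cells of this tissue may include B-1 cells, so this contrast is not one against conventional B cells alone.

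Il10, the anti-inflammatory cytokine of regulatory B and plasma cells (chr1:131019845-131024974, plus strand), was expressed in a part of these cells on either diet. It had 130 counts in LFD and 662 in HFD members, at 55.9 and 58.3 CPM (1.04 [0.862–1.27]), which was 51.9 and 19.8 times the level of B cells. A UMI was found in 57 (30.2%) and 198 (23.9%) members, or 21.8% [16.1–28.4] and 15.4% [13.0–18.1] after thinning, against 0 (up to 0.589%) and 0.236% of endothelial cells and 12.9% and 14.9% of plasmablasts. The HFD member with most Il10 held 29 of the 662 UMIs. Of the 10 tested regulatory genes 4 were lower in HFD and none higher (median 0.796, and 3 lower without immunoglobulin genes in the total), with Ebi3, a cytokine subunit, at 0.463 [0.313–0.698] and Tgfb1 at 0.637 [0.465–0.886].

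Genes of the AHR pathway were detected to unequal degrees in these sorted cells. Ahr had 17 LFD and 88 HFD counts (7.31 and 7.75 CPM) and a UMI in 2.66% and 4.03% of thinned members, below the 10.0% and 8.96% of endothelial cells. Cyp1a1, the gene whose promoter drives the Cre, had 7 and 28 counts and was in 1.06% and 0.978% of thinned members against 42.2% and 29.0% of endothelial cells. Endothelial cells use both genes, so they give no background here, and members had the lower share of each. Cyp1b1 was at 119 and 83.7 CPM (0.703 [0.614–0.806]) and Tiparp, another AHR target, at 97.7 and 81.7 (0.837 [0.723–0.972]). After thinning Cyp1b1 was in 18.1% and 11.2% of members and Tiparp in 29.8% and 27.0%. Thinning left out 777 LFD and 555 HFD resting B cells, so most B cells are not in this comparison. In the B cells kept, Cyp1b1 was in 60 of 243 and 45 of 205 and Tiparp in 34.2% and 37.6%. In thinned endothelial cells Cyp1b1 was in 55.6% and 67.7%. Ahrr, the AHR repressor, was in 0.532% and 0.489% of members. Stromal marker RNA was at 4903 CPM in LFD and 2461 in HFD members, and its part in the ratio of Cyp1b1 was not tested. No gene of 7 in the AHR list passed 1.5-fold between diets (median 0.837).

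Interferon-stimulated genes and stress genes had median ratios between HFD and LFD members of 0.699 and 0.816, beside 0.921 over all genes. Of 11 interferon-stimulated genes 4 were 1.5-fold or more lower and 1 higher, with Isg15 at 87.3 and 37.6 CPM (0.431 [0.363–0.511]) and Ifi27l2a at 0.631 [0.567–0.704]. Of 18 immediate early and stress genes 4 were lower and 1 higher, with the phosphatase Dusp1 at 0.552 [0.491–0.622] and Fos at 0.643 [0.606–0.682], both early genes of cell stress. Without immunoglobulin genes in the total only 1 interferon-stimulated gene was lower and 1 higher, and 1 stress gene lower and none higher, with Isg15 at 0.474, Ifi27l2a at 0.695, Dusp1 at 0.608 and Fos at 0.708. The stromal and macrophage markers were higher in LFD members too (4903 against 2461 CPM and 335 against 72.3), and their part here was not tested. Oxidative phosphorylation had 1 of 18 lower (Atp5g1, 0.658 [0.619–0.700], and none without immunoglobulin genes in the total) at a median of 0.807, and glycolysis 1 of 12 at 0.802. Ddt (chr10:75771230-75773414, minus strand), the relative of Mif, had 585 and 872 counts, at 252 and 76.8 CPM (0.305 [0.274–0.339]), with a ratio of 0.370 in plasmablasts. Its neighbours Gstt1 and Gstt2 had 0.372 [0.216–0.657] and 0.466 [0.351–0.624].

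Several of the most extreme ratios between diets came from genes carried by few cells. Among the 10 highest in HFD outside immunoglobulin genes, Igfbp5 had 0 counts in LFD and 101 in HFD (at least 6.89-fold higher). Of the 18 HFD cells with an Igfbp5 UMI, 5 held 83.2% of these counts. Areg had 2 and 148 counts, 58.1% of the latter in 1 cell. Pnoc, the precursor of nociceptin, was spread more widely, with 1 count in LFD and 230 in 50 HFD members (47.1 [8.37–1867]), and its ratio was 27.4 in plasmablasts, 33.7 in B cells and 21.5 in endothelial cells. Tnfrsf11b (osteoprotegerin) had 6 and 339 counts (11.6 [5.26–31.7]) in 6 and 76 members. Shisa8 had 11 and 238 counts (4.43 [2.43–8.99]) in 9 of 189 and 162 of 830 members, and Klhl41 8 and 130 counts (3.33 [1.64–7.87]) in 8 and 115, with a ratio of 5.64 in plasmablasts and of 2.04 among members when those with both light chains were left out. Upk1b (5.61), Pkhd1l1 (4.71), Sfmbt1 (3.25) and Smpd3 (3.19) made up the rest, and the sizes of several moved with the setting. Igfbp5, Upk1b and Pkhd1l1 also had ratios above 1 in B cells (14.9, 4.08 and 5.13) and endothelial cells (5.41, 4.62 and 3.91), but in plasmablasts they were at 0.893, 1.30 and 1.5 and Areg at 0.161. Upk1b was at 2.45 with 12 of 14 rule genes and 11.3 with doublets removed, Pkhd1l1 at 1.84 after thinning and 13.5 with doublets removed, and Smpd3 at 1.49 and 7.03. With doublets removed Areg was at 1.11 and Pnoc at 10.4.

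Outside immunoglobulin genes, the 10 lowest in HFD were genes of macrophages or stroma for the most part. Lyz2, a macrophage lysozyme, had 582 LFD and 485 HFD counts (0.171 [0.151–0.193]), and 5 LFD cells held 98.1% of the former. The platelet and macrophage chemokine Pf4 (0.0446) had 58.1% of its LFD counts in 1 cell, Cxcl13 (0.0465, but 0.578 with 12 of 14 rule genes) 72.0% and Ctla2a (0.233) 68.4%. The ratio of Ctla2a turned to 1.39 with doublets removed and to 4.67 with 12 of 14 rule genes, so its direction was not stable. C1qa (0.258) was in 3 LFD members, and Ccl6 had 0.119 and Fcer1g 0.264. Stromal genes had a UMI in more LFD cells, with Timp1 at 307 and 75.4 CPM (0.246 [0.222–0.272]) in 75 LFD (39.7%) and 128 HFD (15.4%) members, Serpinf1 at 0.222 and Igf1 at 0.227. Their LFD counts also sat mostly in few cells. For each gene 5 LFD cells held 70.3% (Timp1), 71.6% (Serpinf1) and 64.3% (Igf1) of them. In plasmablasts the ratio was 0.119 for Timp1, 0.269 for Serpinf1 and 0.228 for Igf1, but 1.34 for Lyz2, 1.25 for Ccl6 and 1.27 for Fcer1g.

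RNA of other cell types was measured in the members beside these values. The 7 stromal markers summed to 4903 CPM in LFD and 2461 in HFD members, and 64.0% and 39.8% of members held at least 3 of them. The 7 macrophage markers summed to 335 and 72.3 CPM, with 3 or more in 3 and 8 members, and none of these stromal or macrophage markers was at 0 in either library. Mesothelial markers summed to 95.5 and 106 CPM, endothelial ones to 185 and 163, and the T cell and ILC, neutrophil, dendritic cell and adipocyte markers to between 0.616 and 15.6. Members with 3 or more markers of a type other than stroma numbered 14 in LFD, 12 of them marked as doublets, and 71 in HFD, 50 of them so marked. The part of stromal RNA in the ratios of Timp1, Igf1 and Serpinf1 was not tested. With those 14 and 71 members left out, Areg had a ratio of 1.26, Pnoc 6.30, Tnfrsf11b 3.15, C1qa 1.05 and Pf4 0.682, while Lyz2 was at 0.188 and Timp1 at 0.0952.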

How the data were processed

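Single-cell libraries (10x 3′ v3) of eYFP+ gWAT SVF cells, 1 for each diet, were analysed from the gene by cell UMI count matrices that the authors deposited. The submitters' processing notes name bcl2fastq 2.17.1.14, Cell Ranger 4.0.0, STAR, Seurat 4.1.0 and mm10, and the annotation version is not given in the sources used here. The deposited counts were neither normalised nor filtered for doublets as far as the values show.

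Barcodes with 500 to 40000 UMIs, 100 or more genes and under 12.5% mitochondrial UMIs were kept (10216 LFD, 8537 HFD), and members were picked by the 14 plasma cell and 10 cycling genes. Counts were summed over members and divided by their total and scaled by 1000000 (CPM). Ratios carry conditional binomial intervals and shares Clopper-Pearson intervals at the 95% level. These cover counting error only. With 1 library per diet there were no tests, and "1.5-fold" and "2-fold" are limits of size. The 1.5-fold limit was applied to genes with 50 or more counts over the members of both libraries. The 2-fold limit was applied to genes with 200 or more counts over both groups and libraries. Immunoglobulin genes were left out of both. A gene at 0 counts was set to a floor of 3 counts per group for bounds. UMI shares were computed in cells thinned to 5000 UMIs. Doublets were marked with Scrublet (scanpy 1.11.5) at 0.8% per 1000 barcodes. Python 3.11.15, scipy 1.17.1, R 4.3.3 and edgeR 4.0.16 (for TMM factors only) were used, and the ratio step was checked on simulated data.

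The members and gene lists were chosen with earlier results of these data known. Named genes were the 10 highest and 10 lowest ratios between diets (100 or more counts, interval leaving out 1). Against other cells they were the 15 highest and 10 lowest for B cells and the 10 highest and 5 lowest for plasmablasts. These had 200 or more counts, lay outside the genes of the rules and were ranked by the value nearer to 1 of both libraries. Immunoglobulin genes were left out of all these picks. The listed genes and the leading V genes were named besides. Positions came from GENCODE and promoters from RefSeq. Ddit3 and Aldoa were not matched by symbol. Alternatives were other limits for members and classes, other scalings, thinning depths and doublet removal.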

Additional observations from a re-analysis of the deposited data

Results flagged for a closer look

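With all UMIs in the total, a few listed genes had HFD to LFD ratios on opposite sides of 1 in non-cycling plasma cells and in cycling plasmablasts, with both intervals, which cover counting error only, leaving out 1. The ratio was 0.904 in members and 1.05 in plasmablasts for Dnajb11, a cochaperone of BiP, 0.948 and 1.22 for Hsp90b1, 0.882 and 1.11 for Os9, a lectin of ERAD, and 1.13 and 0.897 for Lgals1, galectin-1. The difference between both kinds of cell was not tested, since each diet had 1 library. The median ratio over all genes of members was 0.921. The side of 1 depends on the scaling. Without immunoglobulin genes in the total, the ratios were 0.996 and 1.14 for Dnajb11, 1.04 and 1.33 for Hsp90b1, 0.971 and 1.21 for Os9 and 1.24 and 0.977 for Lgals1. Those of Hsp90b1 were then both above 1, and each other gene had a ratio close to 1 in one kind of cell.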

How the results depend on the processing

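The higher share of non-cycling plasma cells in HFD held under every setting run, but its size moved. With 12 of 14 genes the shares were 1.15% (LFD) and 7.17% (HFD), ratio 6.26. With fewer than 2 cycling genes they were 1.28% and 6.67%, and with no cycling limit 4.44% and 17.8% (4.01). Under 5% mitochondrial UMIs gave 6.43% and 22.7% (3.53), 5000 or more UMIs 2.32% and 12.1%, and 8 of 11 genes without Igkc, Jchain and Mzb1 1.60% and 9.09%. Thinning to 5000 UMIs gave 10.9% in HFD. Leaving out members with 3 or more markers of another cell type, a setting chosen after seeing the data, gave 8.89%.

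A 50% limit on light chains left 0% of cells without a class in both libraries and 96.6% kappa in HFD. A 95% limit gave 89.9% and 66.7% kappa and 7.41% and 30.7% without a class. Cells with both chains were 7.41% (LFD) and 30.1% (HFD) at a ratio of 0.025 and 3.17% and 26.0% at 0.1, limits chosen after seeing the data. Ighv11-2 led 100% of cells with 80% of at least 10 UMIs in both libraries, which were 3 and 16 cells.

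Genes 1.5-fold or more lower in HFD were 7.33% without immunoglobulin genes in the total, 7.52% with TMM factors, 7.35% (and 3.10% higher) at 200 or more counts and 24.3% at 1 or more counts in each library. Without immunoglobulin genes, 582 genes were higher and 951 lower than in B cells and 17 higher than in plasmablasts. The ratio of Ctla2a turned to 1.39 with doublets removed and 4.67 with 12 of 14 genes, and that of C1qa to 1.05 without members with markers of another type. The cause of these turns was not tested.

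Unthinned, Il10 had a UMI in 30.2% (LFD) and 23.9% (HFD) of members and at 2000 UMIs in 12.7% and 6.99%. For Ighv11-2 these were 30.7% and 54.0%, and 11.1% and 17.6%, and for Igkv14-126 44.4% and 70.2%, and 24.9% and 37.1%. No paired analysis was possible because each diet had 1 library. Levels by heavy chain class were not run, since IgA and IgG cells were too few. The depth of V gene UMIs and the lone library per diet limit these results.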
